A study of Homo sapiens with 24 samples.

Results

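The line by time interaction at 24 h asks, for every gene, whether a day of 4-hydroxytamoxifen (4-OHT) changed its transcript differently in MCF-10A MYC-ER cells and in parental MCF-10A cells. It is the log2 change of the MYC-ER line from 0 to 24 h minus the log2 change of the parental line from 0 to 24 h. The 4 groups it uses hold 12 of the 24 RNA-seq libraries of the series, chosen by their labels alone. They are MYC-ER cells at 0 h, MYC-ER cells after 24 h in 1 µM 4-OHT, parental cells at 0 h and parental cells after 24 h in 1 µM 4-OHT, with 3 libraries each. MCF-10A is an immortalised, non-tumorigenic line of human mammary epithelial cells that lacks CDKN2A, and CDKN2A had 0 counts in all 12 libraries. Both lines were grown in 3 dimensions on Matrigel. Exposure to 4-OHT was timed so that every library was collected together on the fifth day of culture. The 0 h libraries are thus parallel cultures without 4-OHT, not the treated cultures sampled earlier. Words such as before, after, rose and fell compare these parallel cultures below. The labels do not say whether the 0 h cells received a vehicle, whether MYC-ER is 1 clone, or which promoter drives the fusion, and only 1 MYC-ER line was used. Whatever else differs between the lines besides the fusion therefore cannot be told apart from the fusion in this contrast. Nothing in the labels ties the 3 libraries of a group to separate cultures beyond wells plated in triplicate, so p-values measure the spread between these samples, which may be technical.

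MYC is a transcription factor that pairs with MAX and binds the sequence CACGTG, called an E-box, near the start of many genes. In MYC-ER it is joined to the ligand-binding domain of an oestrogen receptor, whose species the labels do not give, and stays inactive until 4-OHT binds. MYC is best known for raising genes of ribosome assembly, nucleotide and amino acid synthesis, glycolysis and cell cycle entry. Genes of mitosis are in general controlled later and through another element, the cell-cycle homology region, with the core TTTGAA, which is bound by the DREAM complex in resting cells and by MYBL2 and FOXM1 in dividing cells.

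The promoters below show both elements in genes with large positive interactions. Each runs from 250 bases before to 50 bases after the annotated start in RefSeq's GRCh38.p14, 5′ to 3′ on the gene's own strand, and the capitals mark the match. EBNA1BP2 lies at chr1:43172521-43172820 on the minus strand and MRTO4 at chr1:19251555-19251854 on the plus strand. Both are nucleolar assembly factors, shown for the E-box.
EBNA1BP2: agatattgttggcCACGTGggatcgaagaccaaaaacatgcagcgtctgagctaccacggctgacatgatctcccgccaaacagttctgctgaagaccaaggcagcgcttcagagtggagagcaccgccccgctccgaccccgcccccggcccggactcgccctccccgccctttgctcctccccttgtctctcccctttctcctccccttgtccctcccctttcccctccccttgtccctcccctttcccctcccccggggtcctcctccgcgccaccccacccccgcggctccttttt
MRTO4: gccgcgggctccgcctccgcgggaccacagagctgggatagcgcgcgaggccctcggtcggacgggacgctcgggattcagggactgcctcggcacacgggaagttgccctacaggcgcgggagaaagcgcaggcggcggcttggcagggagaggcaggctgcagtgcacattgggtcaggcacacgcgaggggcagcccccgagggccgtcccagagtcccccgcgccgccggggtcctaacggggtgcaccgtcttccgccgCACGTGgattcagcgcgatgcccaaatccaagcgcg
PIF1, a DNA helicase, lies at chr15:64825598-64825897 on the minus strand, and SPC25, a kinetochore subunit, at chr2:168890381-168890680 on the minus strand. They are shown for the cell-cycle core.
PIF1: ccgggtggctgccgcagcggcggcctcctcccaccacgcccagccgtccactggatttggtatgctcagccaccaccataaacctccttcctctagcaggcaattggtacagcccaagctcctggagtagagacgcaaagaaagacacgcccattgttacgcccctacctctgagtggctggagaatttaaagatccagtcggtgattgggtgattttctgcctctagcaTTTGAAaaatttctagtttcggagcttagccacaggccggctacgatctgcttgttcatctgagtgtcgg
SPC25: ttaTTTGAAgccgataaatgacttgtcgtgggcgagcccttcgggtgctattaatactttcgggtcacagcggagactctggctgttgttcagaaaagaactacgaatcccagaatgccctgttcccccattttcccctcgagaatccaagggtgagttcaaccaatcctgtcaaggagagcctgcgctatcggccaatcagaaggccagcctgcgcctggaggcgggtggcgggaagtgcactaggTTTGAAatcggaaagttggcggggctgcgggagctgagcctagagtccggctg
The E-box of MRTO4 begins at base 15 after the start and that of EBNA1BP2 at base -237. The core in PIF1 begins at base -20, and the 2 in SPC25 begin at bases -247 and -3. Of 13236 tested genes with a promoter in the table, 9.6% had CACGTG, which reads the same on both strands. It was present in 10.4% of the 4247 genes with a positive interaction, in 9.43% of the 4284 with a negative one, and in 15 of 42 nucleolar list genes (35.7%). For interactions of at least 2-fold it was present in 9% of 2045 positive and 7.66% of 1567 negative genes, both below the share of all tested genes. TTTGAA or its reverse complement TTCAAA was found in 10.4% of all tested genes, 11.5% of those with a positive interaction, 9.41% of those with a negative one, and 40 of 54 G2 and mitosis genes (74.1%). For interactions of at least 2-fold the shares were 14% and 10.6%. Of 27305 RefSeq promoters of this length, 7.43% held CACGTG and 15.4% the cell-cycle core. In all these shares only the first listed promoter of each gene symbol was kept, so other starts were not searched. A match describes the letters in this window and is not a binding site.

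Total counts of the 12 libraries ran from 144205617 to 182438505, and 22158 of 60668 genes had enough counts to be tested. Levels are given as CPM, where each library's total was made comparable by TMM scaling, and they compare a gene between libraries but not one gene with another of different length. Of the basal epithelial markers that bear on the labelled cell type, KRT5 was at 6928 to 14120 CPM and TP63 at 82.5 to 147. KRT14, another basal keratin, differed between the lines, at 603 to 650 CPM in MYC-ER before 4-OHT and 1593 to 1671 after a day, against 5835 to 10876 over the parental libraries. The 7 leukocyte markers summed to 13.2 to 25.3 CPM, with PTPRC and CD3E among those at 0 counts in all 12 libraries, and the 6 endothelial markers to 0.0928 to 1.4 CPM, with CDH5 at 0. COL1A2, of fibroblasts, was at 0 throughout. The 7 fibroblast markers summed to 370 to 377 CPM in MYC-ER cells at 0 h and 77.3 to 133 in the other 3 groups. COL1A1 alone was at 212 to 220 CPM in MYC-ER at 0 h and 53.6 to 105 in the other 3 groups. The rest of the sum was thus also highest in MYC-ER at 0 h. The 3 parental 0 h libraries stood apart in composition. Their count-weighted GC content was 51.2%, 50.2% and 51.3% against 49.6% to 50% in the other 9, and their chi-square per degree of freedom between replicates was 159 to 261 against 9.4 to 61.3 in the other groups, so no library was a copy of another. Across 9784 genes with at least 10 CPM, which share these libraries, the parental change had Spearman's rho of -0.657 with GC content and 0.548 with transcript length. The values were 0.250 and -0.382 for the interaction, and -0.063 and -0.126 for the MYC-ER change.

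The interaction passed the threshold of an adjusted p of 0.05 in 12071 genes, or 54.5% of those tested. It was positive in 6131 (27.7%), meaning that the transcript rose more or fell less in MYC-ER than in parental cells, and negative in 5940 (26.8%). At least a 2-fold difference between the lines' responses was called in 5773 genes, 3298 positive and 2475 negative. The median over all tested genes was 0.02 on the log2 scale. Most of the size came from the MYC-ER side. Among the called genes the median absolute change was 0.81 in MYC-ER and 0.32 in parental cells, and the MYC-ER change was the larger in 9194 of 12071 (76.2%), against 67.2% of all tested genes. For those called at least 2-fold the medians were 1.60 and 0.41, and the MYC-ER change was the larger in 88.2%. Taken alone, the MYC-ER line had 6734 genes higher (30.4%) and 6918 lower (31.2%) at 24 h than at 0 h. The parental line had 4698 higher (21.2%) and 4805 lower (21.7%), of which 881 reached 2-fold against 6090 in MYC-ER.

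**Figure D1:**
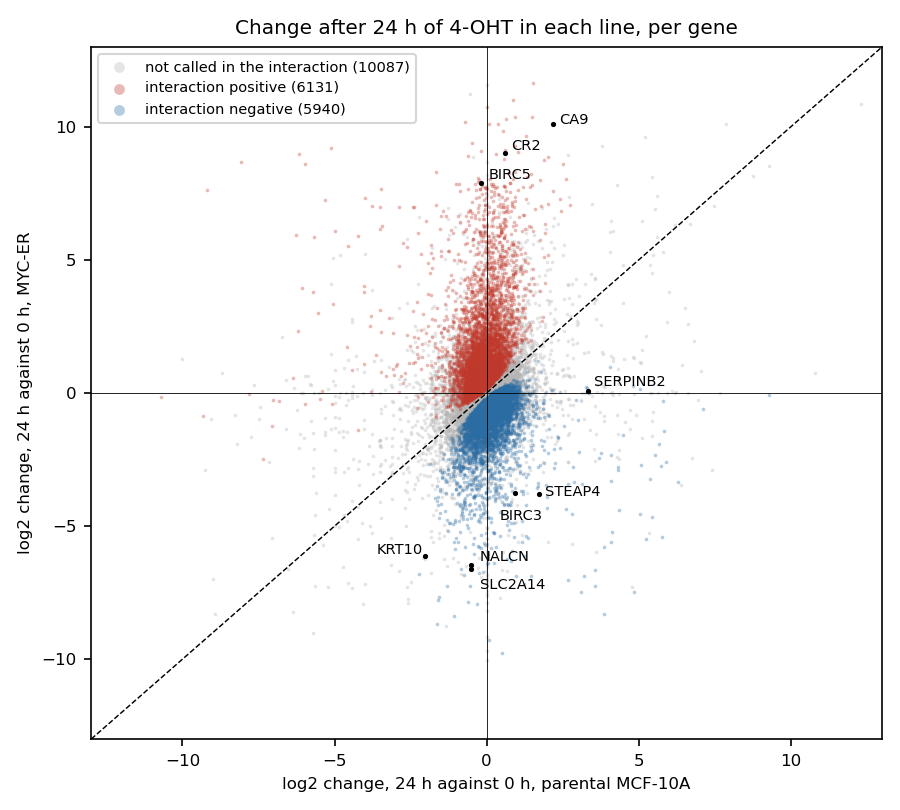
Log2 change from 0 to 24 h of 4-OHT in parental cells (x axis) and in MYC-ER cells (y axis) for the 22158 genes tested, each point 1 gene, with equal changes on the dashed line. Red points are the 6131 genes with a positive interaction and blue points the 5940 with a negative one; both clouds extend further along the MYC-ER axis than along the parental axis.

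The same quantity can be read as the difference between the lines at 24 h minus their difference at 0 h. The contrasts share libraries, so their values are set side by side. At 0 h 6995 genes were higher (31.6%) and 7249 lower (32.7%) in MYC-ER than in the parental line. At 24 h the counts were 5210 higher (23.5%) and 5726 lower (25.8%). Among genes with a called interaction the median absolute difference between the lines was 0.77 at 0 h and 0.40 at 24 h, against 0.69 and 0.43 over all tested genes. For those called at least 2-fold it was 1.36 and 0.63. These medians are smaller after 4-OHT than before it, but single genes went either way. The groups below are described with both readings. Their counts are to be read beside these shares over all genes. For the interaction the shares were 27.7% positive and 26.8% negative.

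**Figure D2:**
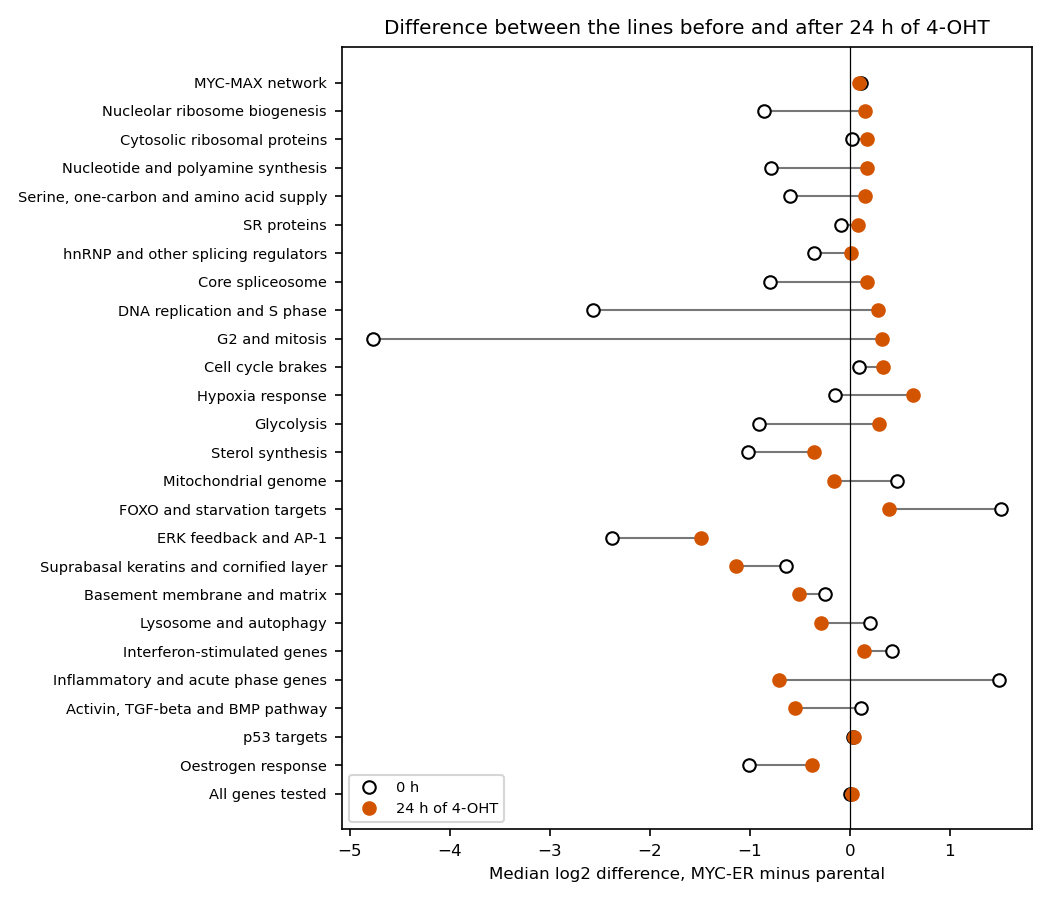
Median log2 difference between MYC-ER and parental cells over the tested genes of 25 lists and over all genes, at 0 h (open circles) and after 24 h of 4-OHT (filled circles); the shift between 2 medians need not equal the median interaction, and has the other sign for the cell cycle brakes, the interferon-stimulated genes and the p53 targets. The G2 and mitosis median went from -4.77 to 0.32, whereas that of the inflammatory genes went from 1.49 to -0.71.

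MYC itself (ENSG00000136997.19) stood at 394, 378 and 388 CPM in MYC-ER cells before 4-OHT and 329, 322 and 312 after a day, and at 462, 535 and 599 and 511, 490 and 517 in parental cells. The MYC-ER values were the lower at both times, without overlap. Its interaction, -0.20 (SE 0.095, adjusted p 0.0884), was not called. It was called with GC and length trends removed, at -0.43 (adjusted p 0.000278), and when parental 0 h replicate 3 was left out, at -0.30 (adjusted p 0.00313). Whether reads of the fusion fall in this row is not known. ESR1 (ENSG00000091831.23), the oestrogen receptor gene, had 96, 93 and 78 counts in MYC-ER before 4-OHT and 40, 17 and 33 after a day, against 29, 42 and 22 and 46, 25 and 44 in parental cells. The log2 interaction of -1.86 (SE 0.66, adjusted p 0.0207) was no longer called when either MYC-ER 24 h replicate 2 (-1.59, adjusted p 0.0599) or parental 0 h replicate 3 (-1.68, adjusted p 0.051) was left out. Of 12 tested genes of the MYC and MAX network, 2 had a positive and 7 a negative interaction, with a median of -0.28. The count of 7 fell to 4 with scaling by library size alone, with only the 12 libraries compared, and without parental 24 h replicate 3, and the median was -0.17 with GC and length trends removed. MXD3, a MAX partner that represses E-box genes, was at 5.01, 5.08 and 5.27 CPM in MYC-ER before 4-OHT and 10.1, 10.9 and 10.6 after a day, and at 13.6, 12.3 and 14.2 and 7.79, 10.5 and 8.97 in parental cells. It rose in one line and fell in the other, with an interaction of 1.59 (SE 0.14, adjusted p 2.31e-09). MXI1, another such partner, rose in MYC-ER from 71.7 ± 2.4 to 98.6 ± 3.8 CPM (SD, n = 3), and its interaction was 0.39. MXD4 fell in both lines and further in MYC-ER, -0.36. MGA, a further MAX partner, had -0.39 (adjusted p 0.0329), a call that did not survive 11 of 23 alternatives and turned to 0.21 with GC and length trends removed.

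Genes of cell division had the largest medians of the 25 lists. All 62 tested genes of G2 and mitosis had a positive interaction, against 27.7% of all genes, and their median was 5.13. All 62 were lower in MYC-ER than in the parental line at 0 h, and at 24 h 39 were higher and 2 lower. BIRC5 (ENSG00000089685.15, chromosome 17, 78214186 to 78225636, plus strand), which encodes survivin, a subunit of the chromosomal passenger complex, stood at 0.557, 0.527 and 0.426 CPM in MYC-ER before 4-OHT and 124, 119 and 117 after a day. The parental libraries held 89.3, 68.9 and 85.6 CPM at 0 h and 71.5, 69 and 73 at 24 h. Only the MYC-ER 0 h libraries were below 1 CPM, the parental times overlapped, and MYC-ER at 24 h lay above both. The interaction of BIRC5 was 8.08 (SE 0.18, adjusted p 2.4e-19) and its line difference at 24 h 0.75 (SE 0.1, adjusted p 2.25e-06). UBE2C, the ubiquitin-conjugating enzyme of the anaphase-promoting complex, rose in MYC-ER from 0.329 ± 0.06 to 59.1 ± 0.88 CPM (SD, n = 3), against 50.6 ± 7 and 46 ± 3 in parental cells, an interaction of 7.63. MYBL2, the activator that replaces the DREAM repressor at mitotic genes, had 0.702, 0.459 and 0.467 CPM in MYC-ER before 4-OHT, 116, 114 and 111 after a day, and 110, 83.1 and 109 and 103, 92 and 107 in parental cells. Its interaction was 7.71 (SE 0.18, adjusted p 8.48e-19), and the lines did not differ past the threshold at 24 h (0.18, adjusted p 0.179). PIF1, whose promoter is shown above, rose from 0.186, 0.0567 and 0.163 to 21.1, 29.5 and 31.7 CPM in MYC-ER and was at 19.3, 20.4 and 21.2 and 18.3, 19 and 15.5 in parental cells, with an interaction of 7.87 (SE 0.29, adjusted p 1.28e-15). PKMYT1, the kinase that restrains CDK1, had a value of 7.95. The smallest interaction of the list was that of BUB3, a checkpoint protein, at 0.75, a gene chosen after its values were seen.

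S phase genes showed the same arrangement at a smaller size. All 48 had a positive interaction with a median of 3.06. Each of the 48 was lower in MYC-ER before 4-OHT, and at 24 h 29 were higher and 3 lower. TK1, thymidine kinase, was at 0.261, 0.301 and 0.216 CPM in MYC-ER before 4-OHT and 56.3, 56.2 and 54.1 after a day, against 50.9, 39 and 53.9 and 46.5, 44.1 and 49.5 in parental cells. The 3 groups other than MYC-ER at 0 h lay within 39 to 56.3 CPM. Its interaction was 7.77 (SE 0.16, adjusted p 8.61e-20). CDC45, a subunit of the replicative helicase, rose from 0.261, 0.204 and 0.199 to 43.1, 42.6 and 41.3 CPM in MYC-ER and was at 29.9, 26.2 and 31.1 and 32.5, 31.1 and 32 in parental cells, an interaction of 7.44 (SE 0.12, adjusted p 3.55e-21). The smallest value was that of the helicase subunit GINS3, 0.64, and the S phase cyclin CCNE1 had 1.50, both chosen after their values were seen. Genes known as brakes of the cycle were split. Of 18 tested, 6 had a positive and 9 a negative interaction, with a median of -0.26, or -0.17 with library size alone. BTG1, an antiproliferative gene of resting cells, fell from 608, 597 and 605 CPM to 123, 126 and 129 in MYC-ER and from 99.8, 110 and 103 to 81.2, 82.8 and 84.8 in parental cells, an interaction of -1.93 (SE 0.065, adjusted p 2.98e-16). MYC-ER cells at 0 h stood above all other libraries. GAS1 had -1.94. CDKN2C and E2F5, in contrast, had positive values of 1.74 and 1.91, and the CDK inhibitor CDKN1A had -0.17, which did not pass the threshold.

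**Figure D3:**
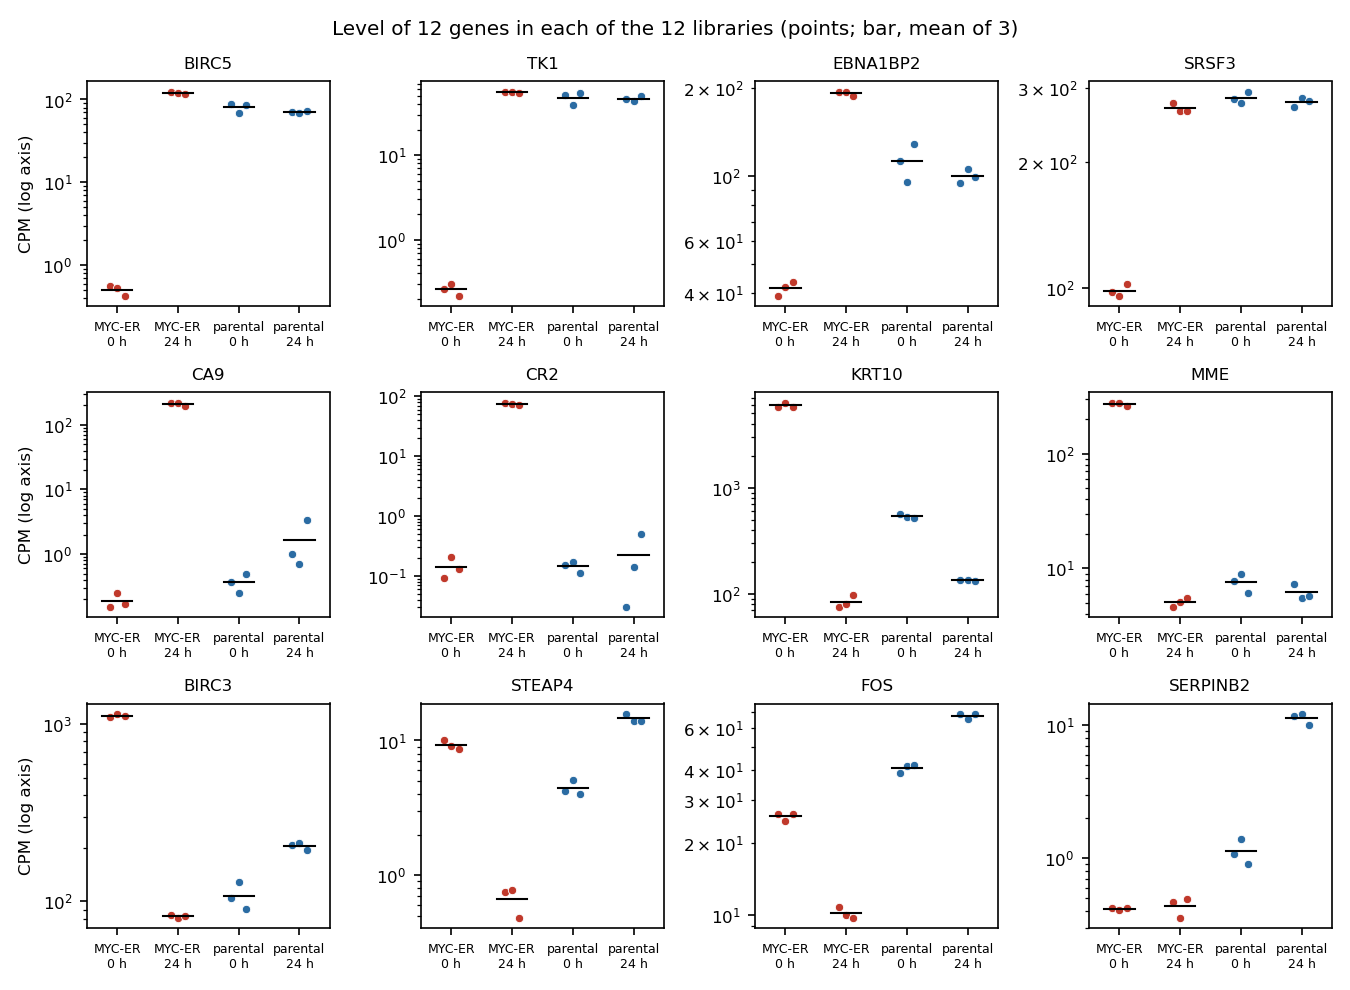
CPM on log axes of 12 genes in each of the 12 libraries, MYC-ER in red and parental in blue, with the mean of 3 as a bar. BIRC5 and TK1 were low only in MYC-ER at 0 h, CA9 and CR2 were high only in MYC-ER at 24 h, KRT10, MME and BIRC3 were highest in MYC-ER at 0 h, STEAP4 and FOS fell in one line and rose in the other, and SERPINB2 rose only in the parental line.

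Genes of building-block synthesis followed. Among 34 genes of nucleotide and polyamine synthesis 29 had a positive and 3 a negative interaction, with a median of 1.17. RRM2, the ribonucleotide reductase subunit limiting for deoxynucleotides, was at 0.696, 0.868 and 1.03 CPM in MYC-ER before 4-OHT and 200, 184 and 181 after a day, and at 126, 154 and 143 and 213, 206 and 212 in parental cells. It rose in both lines, and the interaction was 7.19 (SE 0.15, adjusted p 8.61e-20). TYMS, thymidylate synthase, had 3.65. The polyamine gene ODC1, a textbook MYC target, went from 63.8 to 345 CPM in MYC-ER and from 502 to 491 in parental cells, and the purine gene IMPDH1 from 60.4 to 272 against 180 and 141. Both were named after their values were seen, with interactions of 2.47 and 2.53. The 2 negative values at the required level were PRPS2, -0.29, and AZIN1, -0.39, of which AZIN1 was not called once trends with GC and length were removed (-0.07) and PRPS2 not with scaling by library size alone (-0.20). For serine, one-carbon and amino acid supply, 20 of 31 were positive and 4 negative, median 0.71. GLS2, a glutaminase, rose from 1.06, 1.24 and 1.28 CPM to 45.2, 44.8 and 44 in MYC-ER and was at 6.55, 7.15 and 8.14 and 6.38, 5.06 and 6.35 in parental cells. It ended above both parental groups without overlap, with an interaction of 5.52 (SE 0.17, adjusted p 5.77e-17) and a line difference at 24 h of 2.91 (SE 0.12, adjusted p 1.17e-14). PHGDH, the entry enzyme of serine synthesis, rose from 0.766, 0.902 and 1.24 to 24.6, 23.7 and 25.2 CPM against 13.2, 8.99 and 14.2 and 10.3, 9.68 and 10.3, an interaction of 4.93 (SE 0.22, adjusted p 3.66e-14). The stress genes DDIT3 (-1.11) and SLC38A2 (-0.84) were on the negative side. SLC38A2 had 554, 808 and 491 CPM in the parental 0 h libraries, where replicate 2 stood apart, and its value was -0.38 with GC and length trends removed.

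Nucleolar genes, which assemble ribosomes, had a positive interaction in 44 of 50 cases and a negative one in 0, with a median of 0.99. At 0 h 48 were lower in MYC-ER than in the parental line, against 32.7% of all genes. At 24 h 24 were higher and 14 lower, against 23.5% and 25.8% of all genes. EBNA1BP2 (ENSG00000117395.12, chromosome 1, 43164175 to 43270936, minus strand), whose E-box is shown above, rose from 39, 41.9 and 43.5 to 193, 194 and 187 CPM in MYC-ER and was at 113, 95.8 and 129 and 94.9, 106 and 99.7 in parental cells. MYC-ER was thus below both parental groups at 0 h and above both at 24 h. The interaction was 2.38 (SE 0.11, adjusted p 6.78e-14), and the line difference at 24 h was 0.93 (SE 0.077, adjusted p 1.32e-09). The promoter window printed for EBNA1BP2 follows the RefSeq start, which lies inside the GENCODE span given here and not at its upper end. MRTO4, which places the ribosomal stalk, rose from 33.6, 34.2 and 35.1 to 128, 123 and 123 CPM against 96.5, 78.2 and 99.7 and 78.1, 76.9 and 80.6, an interaction of 2.08 (SE 0.11, adjusted p 1.38e-12). FBL and NOLC1, 2 core nucleolar proteins chosen after their values were seen, had 1.92 and 1.61, while UBTF, a factor of ribosomal RNA transcription, had 0.11 and did not pass. Cytosolic ribosomal proteins did not share this size. Of 57, 14 were positive and 1 negative, against 27.7% and 26.8% of all genes, so the positive share was near that of all genes. The median was 0.16. The count of calls was unstable. It was 36 positive and 1 negative without parental 0 h replicate 2, 8 and 10 without parental 0 h replicate 3, 8 positive without MYC-ER 0 h replicate 2, 9 positive without parental 24 h replicate 1 or with no filter, 22 with library size alone, 8 with only the 12 libraries compared, and 6 and 13 with GC and length trends removed, where the median was -0.03. In the parental line all 57 fell, and in MYC-ER 45 did. RPL35 had 368, 371 and 393 CPM in MYC-ER before 4-OHT, 416, 416 and 399 after a day, and 561, 412 and 642 and 338, 391 and 350 in parental cells, where replicate 2 at 0 h lay below the other 2. Its interaction of 0.70 (SE 0.14, adjusted p 0.000184) was 0.16 (adjusted p 0.113) with GC and length trends removed. RPS7 had 0.51 (0.87 with the trends removed) and RPS4X -0.33, lost in 4 alternatives. These genes have many processed pseudogenes, so their counts are uncertain.

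Splicing factors were divided by class. Of 47 core spliceosome genes 38 had a positive and 3 a negative interaction, median 0.88. SNRPD1, an Sm ring protein, rose from 23.9, 25.4 and 26 CPM to 100, 93.7 and 97.9 in MYC-ER and was at 81.6, 71.1 and 88.8 and 68, 73.6 and 68.9 in parental cells, an interaction of 2.15 (SE 0.087, adjusted p 7.82e-15). SNRPF, another Sm protein, had 2.09. SF3B1, which recognises the branch point, fell in MYC-ER and rose in parental cells, at 423, 445 and 418 and 329, 310 and 319 CPM against 233, 279 and 211 and 303, 311 and 308. Its interaction was -0.77 (SE 0.094, adjusted p 3.88e-07), and -0.27 with GC and length trends removed. PRPF3 had -0.34. Among hnRNP and other splicing regulators 23 of 40 were positive and 10 negative, median 0.32, and with the trends removed 4 instead of 10 were negative and the median was 0.67. HNRNPA1 rose from 592, 682 and 641 to 1587, 1571 and 1641 CPM in MYC-ER and fell from 1521, 1362 and 1481 to 1239, 1273 and 1283 in parental cells, an interaction of 1.53 (SE 0.086, adjusted p 2.06e-12), uncertain because of its pseudogenes. HNRNPA2B1 had 1.46. MBNL2 and QKI, regulators linked to differentiation, had -1.17 and -0.86. QKI was at 50.5, 82.3 and 37.2 CPM in the parental 0 h libraries, a wide spread, and was not called with the trends removed (-0.24, adjusted p 0.0607). SR proteins and their kinases gave 9 positive and 7 negative of 20, against 27.7% and 26.8% of all genes. Their median was 0.15, or 0.39 with the trends removed and 0.24 with library size alone. SRSF3 rose from 98.1, 95.7 and 102 to 277, 265 and 265 CPM in MYC-ER and was at 283, 277 and 294 and 270, 284 and 279 in parental cells. The lines overlapped at 24 h, and the interaction was 1.49 (SE 0.064, adjusted p 2.2e-14). TRA2B had 1.20. The kinases CLK1 and CLK4, which phosphorylate SR proteins, were on the other side. CLK1 fell from 145, 151 and 145 to 85.9, 93 and 96.8 CPM against 50.5, 59.3 and 48.7 and 53.9, 60 and 54.5, an interaction of -0.76 (SE 0.1, adjusted p 1.45e-06) that was -0.44 with the trends removed, and CLK4 had -0.85 (-0.46).

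**Figure D4:**
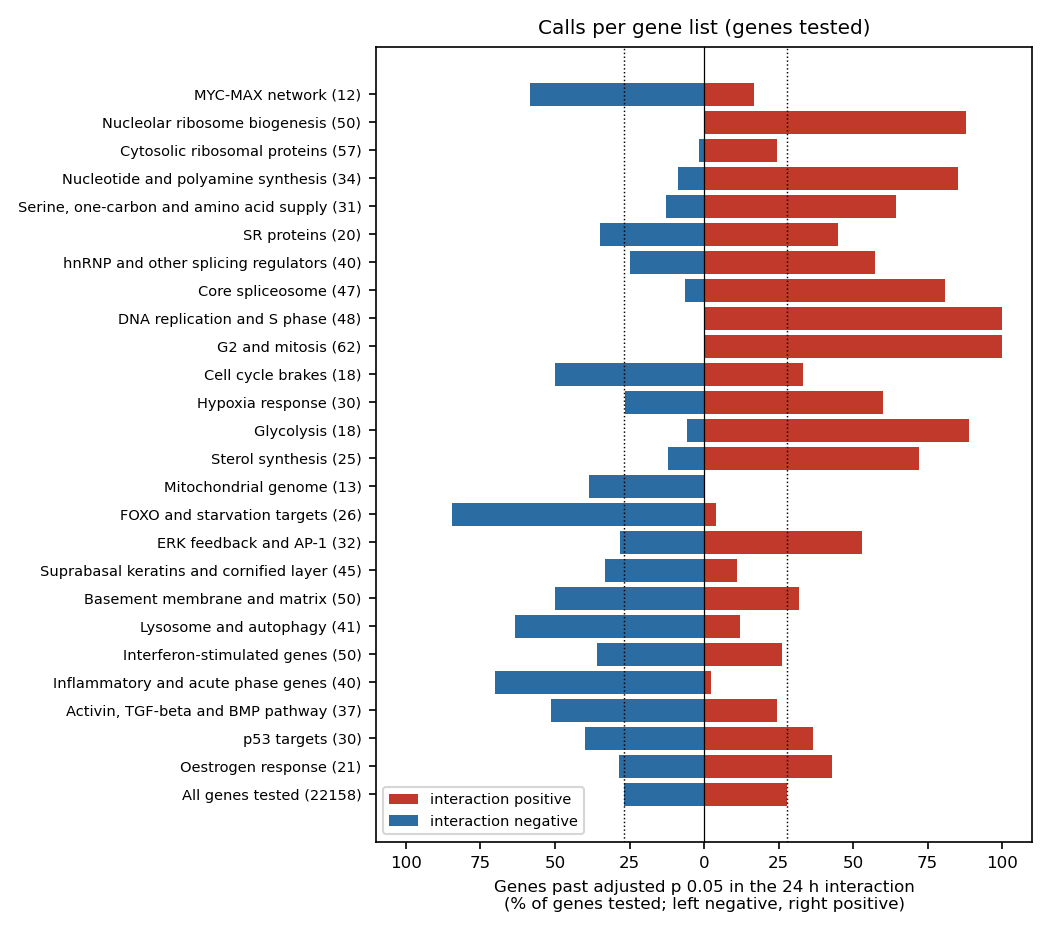
Share of the tested genes of each list with a positive (red, right) or negative (blue, left) interaction at 24 h, with the number tested in parentheses and the shares over all genes, 27.7% and 26.8%, as dotted lines. The S phase bar and the G2 and mitosis bar reach 100% on the right, and the FOXO and inflammatory lists extend furthest to the left.

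Glycolysis had a positive interaction in 16 of 18 genes and a negative one in 1, median 1.27. LDHA, lactate dehydrogenase, rose from 478, 522 and 513 to 2775, 2595 and 2552 CPM in MYC-ER and from 1990, 1930 and 2204 to 2385, 2456 and 2595 in parental cells. The lines overlapped at 24 h and the interaction was 2.11 (SE 0.1, adjusted p 1.84e-13). ALDOC, an aldolase, rose from 18.3, 18.7 and 18.8 to 98.5, 98.6 and 91.2 CPM in MYC-ER and was at 23.6, 18.4 and 26.9 and 23.1, 23.9 and 27.8 in parental cells, so it was higher than every parental library at 24 h only. Its interaction was 2.25 (SE 0.15, adjusted p 3.31e-11). PFKM, the muscle form of phosphofructokinase, was the negative member, -0.77. Of 30 hypoxia genes 18 were positive and 8 negative, median 0.75, and 5 were negative with GC and length trends removed. CA9 (ENSG00000107159.13, chromosome 9, 35673856 to 35681159, plus strand), a carbonic anhydrase induced by the hypoxia factor HIF1, was at 0.151, 0.249 and 0.169 CPM in MYC-ER before 4-OHT and 220, 217 and 198 after a day. Parental cells held 0.368, 0.251 and 0.488 CPM at 0 h and 0.995, 0.708 and 3.31 at 24 h. Both lines rose, the third parental 24 h library stood above its replicates, and MYC-ER at 24 h exceeded every other library. The interaction was 7.93 (SE 0.82, adjusted p 3.41e-08), and 8.90 without that parental library. EGLN3, the HIF prolyl hydroxylase that HIF itself induces, rose from 0.911, 0.601 and 0.806 to 105, 102 and 93.2 CPM in MYC-ER and from 5.31, 4.22 and 7.33 to 14.5, 14.7 and 28.8 in parental cells. Here too the third parental 24 h library was the highest of its group, and the interaction was 5.24 (SE 0.47, adjusted p 3.81e-09). STC2, a secreted glycoprotein of the hypoxia and oestrogen lists, rose from 8.8, 8.69 and 8.5 to 125, 122 and 111 CPM against 25.6, 25.6 and 23 and 24.3, 23.7 and 26.3, an interaction of 3.78 (SE 0.1, adjusted p 7.75e-18). LOX and CA12, of the same list, had negative values of -1.72 and -0.99. In the glycolysis list the line median went from -0.91 at 0 h to 0.29 at 24 h, and in the hypoxia list from -0.15 to 0.63. Sterol synthesis genes were positive in 18 of 25 cases and negative in 3, median 0.91. But 17 were still lower in MYC-ER than in the parental line at 24 h, against 20 at 0 h. Over all genes 25.8% were lower at 24 h and 32.7% at 0 h. The count of 3 negative was 5 without parental 0 h replicate 2. DHCR7, the last enzyme of cholesterol synthesis, rose from 77.5, 83.9 and 81.6 to 394, 383 and 353 CPM in MYC-ER and was at 264, 273 and 309 and 299, 270 and 311 in parental cells, an interaction of 2.16 (SE 0.092, adjusted p 1.92e-14). ACAT2 had 2.07, and LSS and SC5D had -0.51 and -0.47.

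Several of the largest positive interactions belonged to genes outside these programmes that were low in 3 of the 4 groups. CR2 (ENSG00000117322.17, chromosome 1, 207454230 to 207489895, plus strand), a complement receptor best known from B cells, had 0.0928, 0.204 and 0.128 CPM in MYC-ER before 4-OHT and 78.3, 74.3 and 70.9 after a day, against 0.153, 0.171 and 0.113 and 0.0301, 0.14 and 0.499 in parental cells. Its counts in parental cells at 24 h were 5, 21 and 80. Its interaction was 8.42 (SE 0.73, adjusted p 2.37e-09), and 9.84 without the third parental 24 h library. HBA1, an alpha globin that is nearly identical to HBA2 and therefore uncertain, went from 0.0464, 0.0454 and 0.0467 to 14.5, 12.5 and 11.5 CPM against 0.411, 0.143 and 0.41 and 0.271, 0.214 and 0.306, an interaction of 8.37 (SE 0.44, adjusted p 5.77e-13). MYB, a transcription factor of progenitor cells, rose from 0.058, 0.102 and 0.123 to 12.7, 12.1 and 11.3 CPM in MYC-ER and from 2.05, 2.04 and 1.83 to 2.9, 3.01 and 2.87 in parental cells, an interaction of 6.42 (SE 0.23, adjusted p 7.33e-16). For all 3 the line difference at 24 h was called, 8.38, 5.60 and 2.04. EPCAM, an epithelial adhesion molecule read only as a marker of cell type, ran from 1.73 to 2.16 CPM in MYC-ER at 0 h, from 72.3 to 77.7 at 24 h, and from 5.64 to 6.71 over the parental libraries. The 8 general epithelial markers, EPCAM among them, went the other way in MYC-ER. They summed to 3296 to 3633 CPM there at 0 h and 2135 to 2316 at 24 h. In parental cells the sum was 1747 to 2229 CPM at 0 h and 2309 to 2715 at 24 h.

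On the negative side stood genes that were high in MYC-ER cells at 0 h. FOXO factors are active when growth signalling is low and drive genes of atrophy and starvation. Of 26 such genes 22 had a negative interaction and 1 a positive one, median -1.29, where 26.8% of all genes were negative. At 0 h 24 were higher in MYC-ER than in parental cells, and at 24 h 16, against 31.6% and 23.5% of all genes. KLHL38, a muscle atrophy gene, was at 10.9, 11.2 and 10.9 CPM in MYC-ER before 4-OHT and 0.169, 0.183 and 0.429 after a day, while the parental libraries held 0 to 10 counts each. The fitted value of -6.30 (SE 1.3) is not a measured size because 2 parental 0 h libraries had 0 counts, and it was -10.87 without the third. SLC2A14, a glucose transporter and close paralogue of SLC2A3, and so uncertain, fell from 39.5, 42.8 and 42.9 to 0.39, 0.36 and 0.526 CPM in MYC-ER, with 1 to 9 counts per parental library and an interaction of -6.10 (SE 0.78, adjusted p 8.09e-07). The kinase PINK1, the cell death gene BMF, the ubiquitin ligase FBXO32 and FOXO3 itself, all chosen after their values were seen, had -1.87, -3.53, -2.67 and -2.21. FOXO3 stood at 349 CPM in MYC-ER before 4-OHT, 92.6 after a day, and 72.1 and 88.5 in parental cells. PIK3IP1, an inhibitor of PI3 kinase, was the exception, 1.35. Lysosome and autophagy genes were negative in 26 of 41 cases and positive in 5, median -0.43. GPNMB, a lysosomal glycoprotein induced by MiT factors, fell from 1021, 1033 and 1028 to 46.2, 47.1 and 50.6 CPM in MYC-ER and from 53.8, 61.8 and 44 to 29, 30.1 and 31.3 in parental cells, an interaction of -3.60 (SE 0.15, adjusted p 9.46e-15). WIPI1, an autophagosome protein, fell from 17, 17.4 and 17.9 to 1.98, 2.35 and 2.69 CPM and was at 8, 8.03 and 9.32 and 7.93, 9.98 and 8.48 in parental cells, an interaction of -2.96 (SE 0.16, adjusted p 7.92e-13). The lysosomal hydrolase GLA had a positive value of 1.94.

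Inflammatory and acute phase genes were negative in 28 of 40 cases and positive in 1, median -1.74. They crossed over. At 0 h 26 were higher and 8 lower in MYC-ER than in the parental line, against 31.6% and 32.7% of all genes. At 24 h 7 were higher and 26 lower, against 23.5% and 25.8%. BIRC3 (ENSG00000023445.14, chromosome 11, 102317450 to 102339403, plus strand), a ubiquitin ligase that NF-kB induces, fell from 1094, 1148 and 1111 to 83.8, 80.5 and 83.1 CPM in MYC-ER and rose from 104, 128 and 90.7 to 209, 214 and 194 in parental cells. It was the highest in MYC-ER at 0 h and the lowest there at 24 h, with an interaction of -4.69 (SE 0.13, adjusted p 7.78e-18). CXCL2, a neutrophil chemokine, fell from 22, 21.2 and 22.5 to 1.11, 1.42 and 1.81 CPM against 3.03, 3.9 and 3.72 and 5.84, 6.55 and 4.69, an interaction of -4.60 (SE 0.2, adjusted p 1.81e-14). The brake on NF-kB TNFAIP3, chosen after its values were seen, had -3.85, whereas NFKB1 had -0.16 and did not pass. S100A9, an alarmin, was the positive member, 0.87, or 0.48 with GC and length trends removed. Interferon-stimulated genes lay on both sides, with 13 positive and 18 negative of 50, against 27.7% and 26.8% of all genes. Their median of 0.06 ran from -0.05 without parental 0 h replicate 3 to 0.15 without parental 0 h replicate 2. TAPBP, of antigen loading, fell from 297, 290 and 292 to 89.1, 88 and 86.1 CPM against 159, 142 and 151 and 144, 118 and 142, an interaction of -1.58 (SE 0.094, adjusted p 5.6e-12), and IRF1 had -1.39. IFI6 and NLRC5 had positive values of 2.01 and 1.18.

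Differentiation and matrix genes included some of the largest falls. Of 45 suprabasal keratins and cornified layer genes 15 were negative and 5 positive, where 26.8% of all genes were negative and 27.7% positive. Only 19 of the 45 reached a mean of 10 CPM in the highest of the 4 groups. The list had a median of -0.29. The median was -0.18 without parental 0 h replicate 2, -0.48 without parental 0 h replicate 3, and -0.49 with GC and length trends removed. KRT10 (ENSG00000186395.8, chromosome 17, 40818117 to 40822595, minus strand), the keratin of cells that have left the basal layer, fell from 5722, 6316 and 5811 to 75, 80.4 and 97.6 CPM in MYC-ER and from 563, 533 and 523 to 134, 136 and 133 in parental cells. It fell in both lines, and the interaction was -4.13 (SE 0.14, adjusted p 3.73e-16). KRT16, a keratin of stressed epithelium with nearly identical pseudogenes, fell from 3162, 3243 and 3062 to 64.7, 62.6 and 67 CPM against 839, 580 and 793 and 381, 356 and 405, an interaction of -4.65 (SE 0.14, adjusted p 4.51e-17). GRHL3 and SPRR1B, of the same list, had positive values of 2.85 and 1.37 but stayed lower in MYC-ER than in the parental line at 24 h (-1.73 and -3.09). Basement membrane and matrix genes gave 25 negative and 16 positive of 50, median -0.27. This median was not stable: it was -0.66 without parental 0 h replicate 2, -0.63 and -0.45 without MYC-ER 24 h replicates 1 and 3, -0.48 without MYC-ER 0 h replicate 1 or 3, -0.66 with at least 10 counts per library and -0.18 with library size alone. FBLN5, an elastic fibre protein, fell from 49, 52.6 and 50.1 to 0.786, 0.852 and 1.05 CPM in MYC-ER and was at 1.42, 1.22 and 1.59 and 0.983, 1.38 and 1.39 in parental cells, so that only MYC-ER at 0 h was high. Its interaction was -5.64 (SE 0.2, adjusted p 4.92e-16). MMP7, a matrix protease, fell from 13.3, 14.3 and 14.2 to 0.215, 0.246 and 0.301 CPM against 0.491, 0.668 and 0.577 and 0.392, 0.595 and 0.486, an interaction of -5.54 (SE 0.26, adjusted p 9.2e-14). MMP1, the collagenase, and TNC, tenascin, had positive values of 3.69 and 3.13. The summed fibroblast markers given above were lower in MYC-ER at 24 h than at 0 h, like FBLN5 and MMP7 and unlike MMP1 and TNC. Their part in the result was not tested, and COL1A2 was at 0.

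The other genes with the largest negative interactions also stood highest in MYC-ER at 0 h, with 1 exception. NALCN, a sodium leak channel, fell from 60.3, 59.5 and 55.8 to 0.594, 0.688 and 0.711 CPM and was at 1.42, 2.05 and 1.65 and 1.39, 1.01 and 1.17 in parental cells, an interaction of -5.94 (SE 0.2, adjusted p 3.91e-16). MME (ENSG00000196549.10, chromosome 3, 155024124 to 155183729, plus strand), the peptidase neprilysin or CD10, a myoepithelial marker, fell from 274, 278 and 262 to 4.6, 5.06 and 5.55 CPM against 7.78, 8.98 and 6.06 and 7.35, 5.5 and 5.7. The lines overlapped at 24 h, and the interaction was -5.44 (SE 0.2, adjusted p 1.52e-15). ADH1B, an alcohol dehydrogenase, GFPT2, of hexosamine synthesis, and C5AR2, a complement receptor, had -6.08, -5.78 and -5.23. STEAP4 (ENSG00000127954.12, chromosome 7, 88270892 to 88306891, minus strand), a metalloreductase, was the exception, because its highest level was in parental cells at 24 h. It fell from 10.1, 9.11 and 8.62 to 0.757, 0.777 and 0.481 CPM in MYC-ER and rose from 4.19, 5.11 and 3.98 to 15.8, 14 and 13.9 in parental cells, with no overlap between any of the 4 groups. Its interaction was -5.50 (SE 0.2, adjusted p 8.65e-16), its MYC-ER change -3.78 (SE 0.15, adjusted p 1.49e-15) and its parental change 1.72 (SE 0.13, adjusted p 1.31e-08).

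Signalling lists held members on both sides. Of 32 ERK feedback and AP-1 genes 17 were positive and 9 negative. The median was 0.64 (0.37 with GC and length trends removed, 0.35 with at least 10 counts per library). In this list 25 were lower in MYC-ER than in the parental line at 24 h, against 26 at 0 h. Over all genes 25.8% were lower at 24 h and 32.7% at 0 h. ETV4, an ETS factor induced by ERK, rose from 0.0522, 0.0794 and 0.111 to 17.1, 16.3 and 16.4 CPM in MYC-ER and was at 34.1, 27 and 36.7 and 28.5, 27.2 and 28.2 in parental cells. Its interaction of 7.89 (SE 0.19, adjusted p 6.68e-19) left it below the parental level at 24 h (-0.76 (SE 0.095, adjusted p 8.26e-07)). ETV5 had 4.32. FOS, of the AP-1 complex, fell from 26.2, 24.6 and 26.3 to 10.8, 9.98 and 9.72 CPM in MYC-ER and rose from 39, 41.8 and 42.2 to 68.7, 65.5 and 68.4 in parental cells, an interaction of -2.06 (SE 0.11, adjusted p 6.16e-13). KLF6 did likewise, -1.79.

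In the activin, TGF-beta and BMP pathway 19 of 37 genes were negative and 9 positive, median -0.39, or -0.17 with GC and length trends removed. Among ligands, TGFB1 rose from 34.5, 33.1 and 33.5 to 108, 105 and 94.3 CPM in MYC-ER and fell from 92.3, 73.6 and 92.3 to 72.2, 64.5 and 73.7 in parental cells (interaction 1.90 (SE 0.11, adjusted p 6.17e-12)), and BMP2 had -2.89. The receptor TGFBR3 fell from 141, 147 and 135 to 14.2, 12.8 and 13.7 CPM against 20.2, 27.3 and 14.1 and 22.9, 21.5 and 23.3, an interaction of -3.51 (SE 0.2, adjusted p 1.58e-12). For p53 targets the counts were 11 positive and 12 negative of 30, against 27.7% and 26.8% of all genes. Their median was -0.10, or -0.00 without parental 0 h replicate 3. PLK3 and FDXR were positive, 1.35 and 1.19, and ZMAT3 and TP53INP1 negative, -1.12 and -1.09, or -0.49 and -0.61 with GC and length trends removed. Oestrogen response genes gave 9 positive and 6 negative of 21, beside the same shares of all genes, with a median of 0.25. That median ran from 0.03 with at least 10 counts per library to 0.50 with the trends removed, and was 0.08 without MYC-ER 24 h replicate 3 and 0.15 without parental 0 h replicate 3. GREB1, a classic receptor target, fell from 52.4, 51 and 47.5 to 10.7, 9.39 and 10.4 CPM in MYC-ER and from 3.62, 4.04 and 3.09 to 2.83, 2.53 and 2.96 in parental cells, an interaction of -1.94 (SE 0.12, adjusted p 1.39e-11). SLC7A2 had -3.14, and the luminal genes PGR and TFF1 had 0 counts in all 12 libraries. STC2, a member of this list described above with the hypoxia genes, had a positive value.

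The mitochondrial genome supplied 9.54% ± 0.26 (SD, n = 3) of MYC-ER counts before 4-OHT and 6.49% ± 0.16 after a day. The parental shares were 6.06% ± 1.9 at 0 h, with replicate 1 at 3.86%, and 6.25% ± 0.78 at 24 h. Of 13 genes 5 had a negative interaction and 0 a positive one, median -0.60, or -0.32 without parental 0 h replicate 1. The count was 10 without parental 0 h replicate 2, 9 without parental 0 h replicate 3, 9 with GC and length trends removed, and 3 with only the 12 libraries compared. MT-ND1, a complex I subunit, was at 2440, 2560 and 2649 CPM in MYC-ER before 4-OHT, 1129, 1123 and 1133 after a day, and 809, 1651 and 1806 and 1413, 1518 and 1251 in parental cells, an interaction of -1.15 (SE 0.25, adjusted p 0.000417).

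A smaller set of interactions came from the parental side. Of the 12071 called genes 2877 had the larger change in parental cells. SERPINB2 (ENSG00000197632.9, chromosome 18, 63871692 to 63903890, plus strand), a serpin of epithelial stress, was at 0.423, 0.408 and 0.42 CPM in MYC-ER before 4-OHT and 0.466, 0.354 and 0.494 after a day, and rose from 1.08, 1.39 and 0.904 to 11.8, 12.2 and 10.1 in parental cells. The MYC-ER groups overlapped and the parental ones did not. Its interaction was -3.27 (SE 0.33, adjusted p 2.77e-08). PRDM1, a transcriptional repressor, rose in both lines and further in parental cells, -0.48, but was not called in 6 alternatives. SAMD11 fell in both and further in parental cells, 0.76, and was not called once trends with GC and length were removed (0.34, adjusted p 0.117).

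Whether the interaction at 24 h differed from those at 8 h and 48 h was tested directly, as the change between 2 treated times in MYC-ER minus that in parental cells. Against 8 h it was larger in 5020 genes (22.7%) and smaller in 5159 (23.3%). Scaling moved this split. By library size alone 6971 were larger and 3356 smaller, 67.5% of the calls larger instead of 49.3%, and the median over all genes was 0.27 instead of 0.06. Differences from 8 h are given relative to the TMM scale. Against 48 h it was larger in 4248 genes (19.2%) and smaller in 4027 (18.2%). Of the 25 lists G2 and mitosis had the largest median difference from 8 h, 3.94, and the inflammatory list the largest from 48 h, -2.35. In G2 and mitosis the medians after 8, 24 and 48 h were 0.75, 5.13 and 3.72, and 62 of 62 were larger than at 8 h and 60 than at 48 h. S phase medians were 1.39, 3.06 and 1.26, with 46 and 48 of 48 larger. CDC25C, the phosphatase that starts mitosis, averaged 0.267 ± 0.059, 0.203 ± 0.017, 20.4 ± 0.4 and 8.6 ± 0.51 CPM (SD, n = 3) after 0, 8, 24 and 48 h in MYC-ER. The parental means were 14.6 ± 1.5, 12.8 ± 0.21, 13.7 ± 0.6 and 11.2 ± 0.97 CPM. Its interaction was larger than at 8 h by 6.55 (SE 0.16, adjusted p 4.14e-18). NEURL1B, a ubiquitin ligase of Notch signalling, also differed most from 8 h, by 6.19, as did PIF1, by 7.34.

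**Figure D5:**
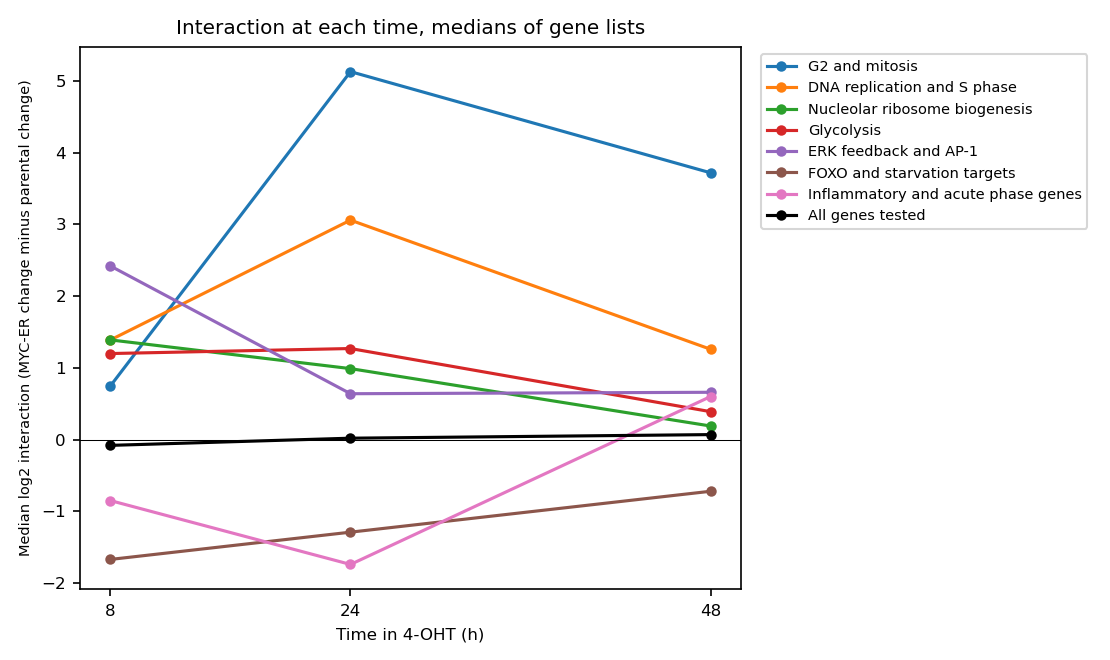
Median log2 interaction at 8, 24 and 48 h over the tested genes of 7 lists and over all genes; the 3 times share the 0 h libraries. G2 and mitosis peaks at 24 h, and nucleolar genes decline from 1.39 at 8 h to 0.19 at 48 h. ERK feedback genes are highest at 8 h, and the inflammatory median is -1.74 at 24 h and 0.60 at 48 h. Values are on the TMM scale.

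Growth genes were ordered otherwise. Nucleolar medians were 1.39, 0.99 and 0.19. At 24 h 35 of 50 were smaller than at 8 h, and 48 were larger than at 48 h. Their median difference from 8 h was -0.33 on the TMM scale. It was not computed for this list with library size alone, where the all-gene median moved from 0.06 to 0.27. Glycolysis medians were 1.20 at 8 h and 1.27 at 24 h, with 3 of 18 larger and 6 smaller than at 8 h, and 16 were larger than at 48 h. ERK feedback and AP-1 medians were 2.42, 0.64 and 0.66, and 25 of 32 were smaller than at 8 h. FOXO medians were -1.67, -1.29 and -0.72, with 13 genes higher and 7 lower than at 8 h on the signed scale. The inflammatory medians were -0.85, -1.74 and 0.60, with 23 of 40 smaller than at 8 h, 30 smaller than at 48 h and 0 larger than at 48 h. CSF3, a granulocyte growth factor of that list, averaged 3.42 ± 0.28, 95.1 ± 0.93, 2 ± 0.2 and 8.3 ± 0.84 CPM (SD, n = 3) at these 4 times in MYC-ER, against 26.4 ± 3.7, 35.2 ± 3, 29.7 ± 1.9 and 31.3 ± 0.55 in parental cells, so that it stood above the parental level at 8 h only. Its interaction at 24 h was below that at 8 h by -5.32 (SE 0.14, adjusted p 1.59e-17). MMP1 reached 33.7 ± 1.7 CPM at 8 h and stood at 1.61 ± 0.075 at 24 h, a difference between the interactions of -4.46, and PLA2G4E, a phospholipase, had -4.67. Against 48 h the largest positive differences were in MMP1 (3.48), PPFIA4 (3.37) and ETV4 (3.21). The size for MMP1 is uncertain, because it averaged 0.0385 ± 0.013 CPM (SD, n = 3) in MYC-ER at 48 h. In those libraries 3 counts were 0.019 to 0.0219 CPM. The largest negative ones were in ADH1B (-5.12), ACSS1 (-5.00) and KLHL38 (-4.77, which is not a measured size, as above). ACSS1, the mitochondrial acetyl-CoA synthetase, averaged 22.6 ± 0.42, 1.96 ± 0.24, 0.848 ± 0.23 and 31.2 ± 1 CPM (SD, n = 3) over the 4 times in MYC-ER. It was low at 8 and 24 h and above the 0 h level at 48 h, while parental means stayed between 0.551 and 0.946 CPM.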

How the data were processed

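Poly(A)-selected, stranded RNA libraries were sequenced as 150-base pairs with 3 libraries pooled per lane, per the labels' protocols. The members of each lane are not named, so lane and group cannot be told apart. The deposited table gives whole-number counts per gene, which the authors did not normalise. The submitters' processing notes name GRCh38, Trimmomatic 0.39, STAR and StringTie 2.1.3b without roles. If the counts came from StringTie's coverage they are estimates, and the chi-square values are approximate. Settings, annotation release and strand use are not given in the sources used here. Of 60668 gene identifiers 60295 matched a symbol; coordinates of genes are from GENCODE 29 on GRCh38.

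Groups came from the labels. Genes kept by filterByExpr (22158) were scaled by TMM. All 24 libraries entered 1 model with a mean for each of the 8 groups (edgeR 4.0.16 under R 4.3.3). Each contrast was given a two-sided quasi-likelihood test, and p-values were adjusted over all genes by Benjamini-Hochberg, with calls at an adjusted p of at most 0.05. The biological coefficient of variation was 0.151 over all genes, and 3 counts, the limit that 0 allows, were 0.0164 to 0.0208 CPM in the 12 libraries, for counting error only. Alternatives were 3 other scalings, no filter, a minimum of 10 counts per library, only the 12 libraries compared, DESeq2 1.42.0, a replicate block, removal of GC and length trends (lowess, span 0.3, with values for 98% of genes) and leaving out each library.

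The 25 lists and the rule for named genes were chosen with earlier results of these data known. Named genes are the 10 largest interactions in each direction, the 2 largest per list and direction, MYC and ESR1, the 3 largest parental changes that exceed the MYC-ER change, and the 3 per direction that differ most from 8 h and from 48 h. All had at least 10 CPM in the highest group, apart from MYC and ESR1, which needed no level. Some genes that the rule names are not reported here. RNA per cell and the share of a cell type cannot be told apart in these bulk libraries.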

Additional observations from a re-analysis of the deposited data

Results flagged for a closer look

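The response to 4-OHT over 24 h differed between the lines by the interaction term in 6131 genes with a positive and 5940 with a negative value, which are the counts described above. STEAP4 was the named gene that fell at least 2-fold in MYC-ER and rose at least 2-fold in parental cells, with no overlap between the times in either line and with a log2 interaction of -5.50. No formal outlier test was run on groups of 3 libraries.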

How the results depend on the processing

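The counts of positive and negative interactions at 24 h stayed within 1.5 times under all 23 alternatives. Leaving out each library gave 5817 to 6442 positive and 5619 to 6369 negative genes, and 3064 to 3411 and 2285 to 2882 at least 2-fold. The other alternatives gave 5407 to 6739 positive and 5230 to 5925 negative, the lowest positive count with at least 10 counts in every library, where fewer genes are tested, and the highest with library size alone. Library size alone moved the count smaller than at 8 h from 5159 to 3356. Replicate numbers did not pair the libraries over the 4 groups, since the deviations of same-numbered libraries had correlations of -0.199 to 0.173 over 18 pairs. The 2 groups at 0 h differed from this, with 0.109, 0.110 and 0.173 for the same number and -0.116 to 0.006 for unlike numbers, a hint from the data and not the design; their own contrast was not refitted with the block. With the replicate number as a replicate block 6063 genes were positive and 5910 negative, and none of the counts for 24 h or for its differences from 8 h and 48 h moved by over 1.5 times. Of the 110 named genes 100 kept their direction and call under every alternative. Over 2522 values 31 lost the call, 3 gained it and 2 reversed, both in MGA, which was 0.21 with GC and length trends removed and 0.21 with the replicate block as well; the cause was not tested. The other genes that changed a call were RPL35, RPS4X, AZIN1, PRPS2, QKI, MYC, ESR1, PRDM1 and SAMD11. With 3 libraries a group, fitted values of genes near 0 counts, such as KLHL38, give no size.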

Other observations

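Some close relatives within a family had interactions of opposite sign. The examples were chosen after their values were seen, and values are means of 3 libraries. Collagen IV, the sheet of the basement membrane, is built from chains encoded in head-to-head gene pairs. COL4A1 and COL4A2, one such pair, had 1.80 and 2.99, and COL4A2 went from 5.47 to 67 CPM in MYC-ER and 21.5 to 33.2 in parental cells. COL4A3 and COL4A4, another pair, had -2.33 and -3.62, and COL4A4 went from 16.3 to 1.39 CPM in MYC-ER and 1.33 to 1.38 in parental cells. Laminin chains divided too, with 2.51 in LAMA1 and -1.76 in LAMB1. The widely expressed glucose transporter SLC2A1 had 1.08 and its relative SLC2A3, whose reads can be shared with SLC2A14, had -4.04. For phosphofructokinase the platelet, liver and muscle forms PFKP, PFKL and PFKM had 1.42, 0.67 and -0.77.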
